A study of Mus musculus with 10 samples.

Results

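The genes examined here encode the proteins that hold chromatin loops: CTCF, cohesin with its loader and release factors, and 2 factors that join enhancers to promoters. The 10 genes are Ctcf, Rad21, Smc3, Stag1, Nipbl, Wapl, Pds5a, Pds5b, Yy1 and Ldb1, and their members among the measured regions are the peaks to which the deposited annotation gives one of these symbols. There were 63 such peaks among 61571 nuclear peaks, and all 10 genes had at least 1. Chromatin accessibility had been measured by ATAC-seq, an assay that inserts sequencing adapters into open DNA with a transposase, in naive CD4 T cells sorted from mouse spleen and lymph node by surface markers that include CD3+, CD4+, CD25- and CD44low/-. The KO group holds 5 libraries, from mice of the genotype Satb1fl/fl x CD4-CreERT2wt/+ that had received tamoxifen. The WT group holds 5 libraries, from mice of that genotype left without tamoxifen. Both groups therefore carry the floxed Satb1 alleles and 1 copy of a tamoxifen-inducible Cre driven by CD4, and in KO the drug allows Cre to delete Satb1. Tamoxifen exposure and loss of Satb1 cannot be told apart, because no WT library was exposed. The labels give no age, and they do not say that each library came from its own animal, and the p-values then reflect spread between libraries that may be technical.

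CTCF is a zinc-finger protein that binds a long DNA motif and stops cohesin, a ring-shaped complex that reels in DNA, so that loops end where CTCF is bound. SMC3, RAD21 and a STAG subunit form part of the ring, NIPBL loads it and drives it along, WAPL opens it, and PDS5A and PDS5B bind it and modulate both residence and release. YY1 and LDB1 bridge enhancers and promoters, and SATB1, the protein removed in KO, is itself an organiser of T cell chromatin. Accessibility of a gene's peaks is not the amount of its product, and no binding of these proteins was measured.

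Library depth set how small a difference could be seen. Counts in peaks totalled 673398 to 2184717 in KO libraries and 1025283 to 2081740 in WT libraries. Levels are given in counts-per-million (CPM), where a library's total is its in-peak count after TMM scaling. Satb1, the targeted gene, kept its peaks: its 26 peaks summed to 373 to 403 CPM in KO and 320 to 356 CPM in WT (log2 fold change 0.19 ± 0.05 SE, edgeR adjusted p = 0.0241), and its exonic peak held 5.65 to 7.56 CPM in KO and 5.21 to 10.5 CPM in WT. The labels do not name the floxed exons, so these peaks do not check the deletion or the labels. All 10 T cell markers had peaks, with a summed level of 2558 to 2676 CPM in KO and 2421 to 2622 CPM in WT, and Il7r was among those that rose (log2 fold change 0.39, edgeR adjusted p = 9.89e-07). Of the B cell markers Cd79a had a peak, at 2.83 to 7.56 CPM in KO and 3.79 to 6.12 CPM in WT, and Ms4a1, Pax5 and Ebf1 had none. Markers of CD8 T cells (both of 2 present) summed to 21.3 to 30.3 CPM in KO and 24.1 to 28.8 CPM in WT, and those of regulatory T cells (both of 2) to 136 to 188 CPM in KO and 139 to 161 CPM in WT. In the regulatory T cell sum, Foxp3 held 4.35 to 12.1 CPM in KO and 4.51 to 8.86 CPM in WT, and Il2ra the rest. NK cell markers (3 of 4 present, no Ncr1 peak) summed to 168 to 206 CPM in KO and 164 to 180.2 CPM in WT, and myeloid markers (3 of 5, no Csf1r or Lyz2 peak) to 43.9 to 70.7 CPM in KO and 55.7 to 69.2 CPM in WT. Erythroid markers (2 of 3, no Gata1 peak) summed to 48.6 to 71.6 CPM in KO and 52.1 to 62.4 CPM in WT. Their part in the results below was not tested.

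The promoters of these genes are shown first, since most of their accessibility lies there. RefSeq promoter windows (GRCm38.p6, which shares the chromosome coordinates of mm10, from 250 bases before to 50 after a start) were matched by symbol for 8 of the 10 genes, in 10 windows, because Ldb1 has 3. Each of the 8 genes had at least 1 window inside or across a peak of its own. The letters AANATGGCG, the core of the motif bound by YY1, were searched on both strands (reverse complement CGCCATNTT) and were found in 4 genes, Ctcf, Smc3, Stag1 and Pds5b. They occur in 2.38% of all 32851 RefSeq promoters and in 4.24% of the 6011 with at least 65% G and C. These 4 are printed because a factor of the set, YY1, is known to bind such letters. The capitals mark the match, and each run is the plus strand from 250 bases before the start to 30 after it.
Ctcf, chr8:105636288-105636567: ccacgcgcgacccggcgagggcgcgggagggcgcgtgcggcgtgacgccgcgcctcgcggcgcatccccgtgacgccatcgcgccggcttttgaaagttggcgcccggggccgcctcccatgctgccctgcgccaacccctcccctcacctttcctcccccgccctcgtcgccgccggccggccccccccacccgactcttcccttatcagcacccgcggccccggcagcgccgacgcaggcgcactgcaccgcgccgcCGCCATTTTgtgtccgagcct
Smc3, chr19:53600146-53600425: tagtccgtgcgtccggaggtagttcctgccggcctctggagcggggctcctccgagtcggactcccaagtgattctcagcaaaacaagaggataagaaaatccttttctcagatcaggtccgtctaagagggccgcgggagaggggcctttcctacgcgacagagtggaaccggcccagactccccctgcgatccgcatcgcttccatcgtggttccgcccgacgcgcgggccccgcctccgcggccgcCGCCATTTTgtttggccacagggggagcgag
Stag1, chr9:100643198-100643477: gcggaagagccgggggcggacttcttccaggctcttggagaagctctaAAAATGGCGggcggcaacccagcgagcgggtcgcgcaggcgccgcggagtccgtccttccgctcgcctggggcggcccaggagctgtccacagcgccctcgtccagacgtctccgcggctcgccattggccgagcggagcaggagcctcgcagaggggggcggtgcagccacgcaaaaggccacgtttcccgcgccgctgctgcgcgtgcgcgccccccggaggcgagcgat
Pds5b, chr5:150673577-150673856: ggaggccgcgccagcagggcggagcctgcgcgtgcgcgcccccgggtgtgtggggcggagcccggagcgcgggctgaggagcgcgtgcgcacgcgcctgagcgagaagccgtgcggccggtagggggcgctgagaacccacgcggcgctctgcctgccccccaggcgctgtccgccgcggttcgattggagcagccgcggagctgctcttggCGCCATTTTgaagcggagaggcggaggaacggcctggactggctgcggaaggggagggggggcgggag
Counted from the start with no position 0, the match spans 10 to 18 in Ctcf, -1 to 8 in Smc3, -202 to -194 in Stag1 and -38 to -30 in Pds5b. In Smc3, Ctcf and Pds5b it reads on the minus strand, and in Stag1 on the plus strand, where its last base is also the first base of a GC box. GC boxes (GGGCGG or CCGCCC) were found in all 8 genes and in 35.7% of all promoters, or 87.4% of those rich in G and C. The letters AGNNGGCGC (reverse complement GCGCCNNCT), a core of the CTCF motif, were found in Ctcf, Pds5a, Pds5b, Wapl and Yy1, against 7.23% of all promoters and 21.7% of those rich in G and C. CCAAT (reverse ATTGG) was found in Ldb1, Pds5b, Stag1 and Wapl, against 37.4% of all promoters and 28.0% of those rich in G and C. TATAAA (reverse TTTATA) was found in none of the 8 genes, against 13.6% of all promoters and 2.36% of those rich in G and C. Matches of letters are a description and do not show that a factor was bound.

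Across these genes few differences between KO and WT were called, with 1 peak apart from the rest. Of the 63 peaks, 51 passed the count filter and were tested. Of these, 1 was called higher in KO and 0 lower by edgeR's quasi-likelihood test (adjusted p under 0.05), and DESeq2 and limma-voom also called 1 higher and 0 lower. Over all 34910 tested peaks, 2.94% were called higher, and 0.911% were called lower. An unadjusted p under 0.05 was reached by 4 of the 51, or 7.84%, against 13.6% of all tested peaks. The 2 groups were fully apart in 1 of the 51, or 1.96%, against 3.97% of all tested peaks. Fitted log2 fold changes (KO over WT) were above 0 in 27 tested peaks and below 0 in 24, with a median of 0.01 beside -0.01 over all tested peaks. The uncalled 50 ranged from -0.76 to 0.47. Because these are bulk libraries, a lower accessibility per cell cannot be told apart from fewer accessible cells.

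The peaks fall into 21 promoter, 19 distal intergenic, 19 intronic, 3 5' UTR and 1 exonic by the deposited classes. Promoter peaks made up 33.3% of them, against 36.6% of all nuclear peaks, and introns 30.2% in both. Their median width was 209 bp and their median level 11.1 CPM, against 164 bp and 7.31 CPM over all nuclear peaks. The 12 peaks not tested (5 of Nipbl, 3 of Pds5a, 2 of Wapl, 1 each of Stag1 and Pds5b) held 13 to 99 counts over the 10 libraries and averaged at most 5.16 CPM in KO and 7.93 CPM in WT. The filter asks for a level in enough single libraries, so the summed count does not decide it. The untested Wapl peak at 680 bp held 99 counts (4.61 ± 1.41 CPM in KO, against 7.93 ± 2.56 CPM in WT), and the tested exonic Pds5a peak held 93.

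**Figure D1:**
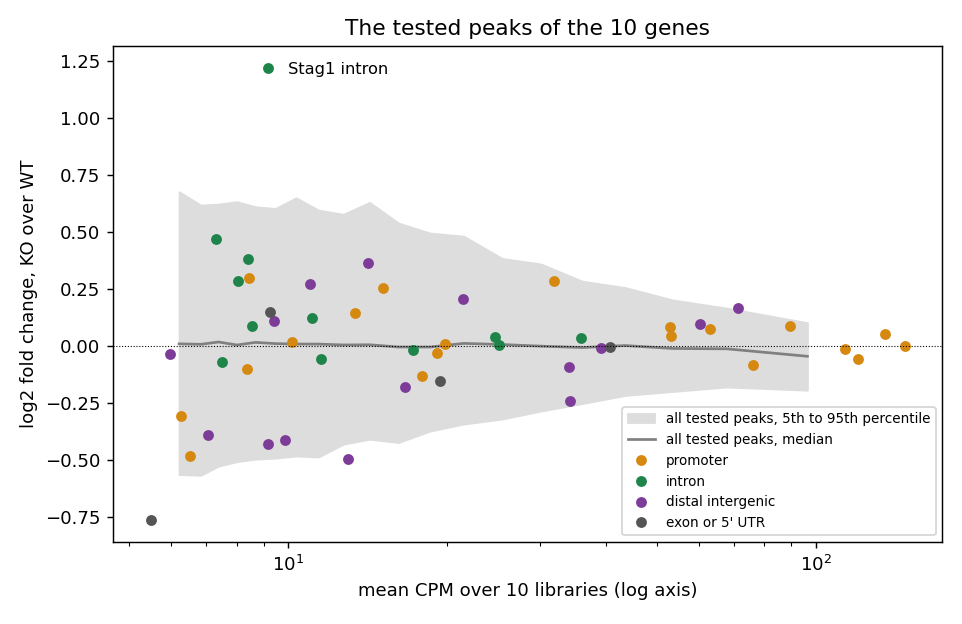
Each point is 1 of the 51 tested peaks, with its mean CPM over 10 libraries on a log axis and its fitted log2 fold change, KO over WT, coloured by annotated class. The grey band spans the 5th to 95th percentile of all tested peaks at that level; the Stag1 intronic peak at 1.215 lies above it, and the peak at -0.76 is the exonic Pds5a peak.

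Summed over all its peaks, none of the 10 genes was called in either direction, against 1.65% of 12489 gene sums called higher and 0.536% called lower. None had an unadjusted p under 0.05, against 12.5% of all gene sums. The KO and WT libraries overlapped in all 10, and 3.11% of all gene sums did not overlap. The median log2 fold change was 0.02 over the 10 genes and -0.005 over all gene sums. The 95% intervals of the fold (KO over WT) ran from 0.868 at the lowest bound, for Pds5b, to 1.21 at the highest, for Rad21. The interval of each gene covers 1, and that of Nipbl, for example, ran from 0.889 to 1.04.

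**Figure D2:**
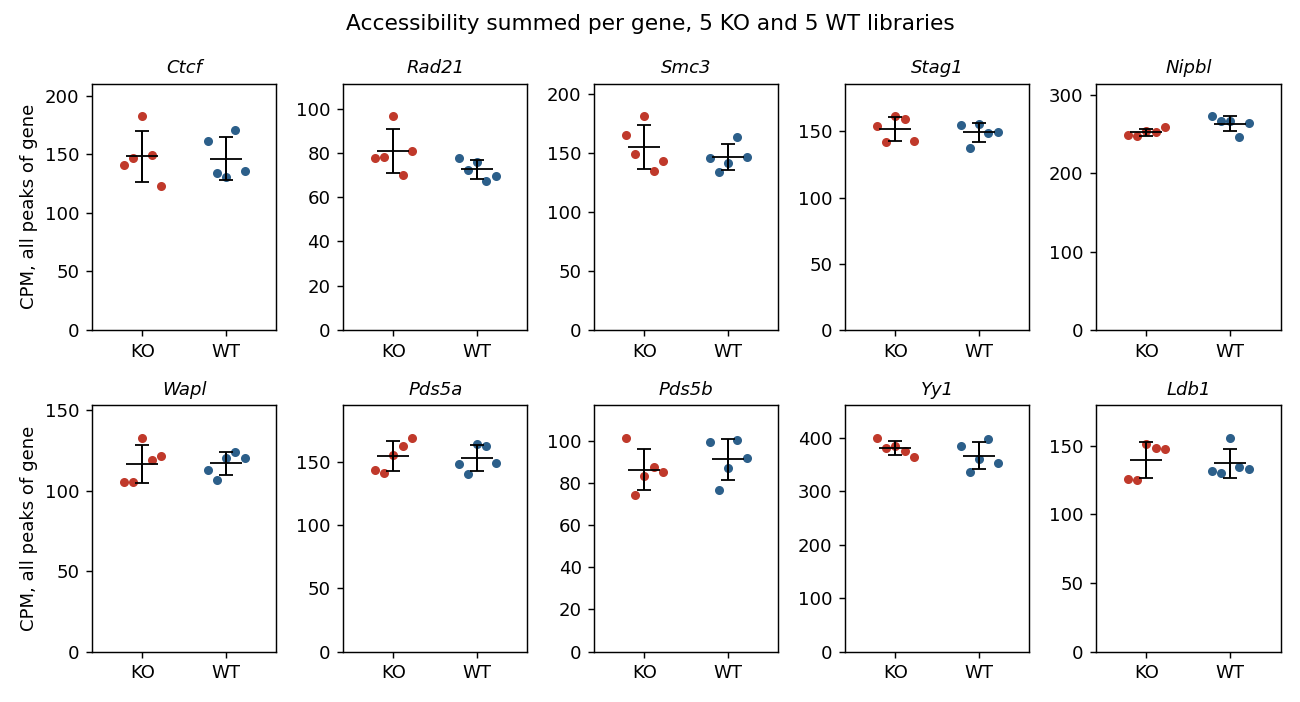
Each panel gives the summed CPM of all peaks of 1 gene in the 5 KO libraries (red, left) and the 5 WT libraries (blue, right), with the mean and SD in black and axes from 0. The groups overlap in all 10 panels, and Nipbl has the narrowest spread in KO, 248 to 259 CPM, against 247 to 274 CPM in WT.

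Ctcf, the gene of the anchor protein, had a single peak, which covers its start site (chr8:105636008-105637082). It held 141, 147, 183, 149 and 123 CPM in KO libraries Sample_2268_KO to Sample_2272_KO, against 161, 134, 130.4, 171 and 136 CPM in WT libraries Sample_2273_WT to Sample_2277_WT. The groups cover almost the same range, with Sample_2270_KO highest. Means were 149 ± 21.8 CPM in KO, against 147 ± 18.4 CPM in WT (SD, n = 5 each), and the fitted log2 fold change of the sum was -0.01 ± 0.08 SE (adjusted p = 0.988 by edgeR). At 1075 bp it is the second widest start-site peak of the set, and its mean level exceeded that of 98.9% of the 9144 start-site peaks in the table.

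Among the ring subunits, Smc3 encodes one of the ATPase arms of the ring. Its summed level was 165, 149, 182, 135 and 143 CPM in KO, against 146, 134, 142, 164 and 147 CPM in WT. Sample_2270_KO was again the highest and the groups overlap. KO averaged 155 ± 18.7 CPM and WT 146 ± 11.0 CPM (log2 fold change 0.04 ± 0.07 SE, adjusted p = 0.883 by edgeR). The start-site peak (chr19:53599877-53600995) carried 89.8% of it. The rest came from peaks at -28090 and -21158 bp, upstream of the start, the stronger of which had 10.0 ± 1.79 CPM in KO, against 8.80 ± 1.23 CPM in WT.

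Rad21, the gene of the kleisin that closes the ring and is cut when sister chromatids part, had 3 promoter peaks and no other. Their sum was 77.6, 78.2, 96.8, 70.0 and 81.0 CPM in KO, against 77.8, 72.2, 75.8, 67.4 and 69.8 CPM in WT. Of the 10 genes it had the highest fitted change, 0.11 ± 0.08 SE on the log2 scale, with means of 80.7 ± 9.87 CPM in KO, against 72.6 ± 4.27 CPM in WT (adjusted p = 0.640 by edgeR). The KO spread rests on Sample_2270_KO, the shallowest library, and the remaining KO libraries lie at 70.0 to 81.0 CPM. Its peak with the smallest p, at 390 bp, had 16.2 ± 3.74 CPM in KO, against 14.1 ± 4.39 CPM in WT (adjusted p = 0.642).

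Stag1 encodes SA1, an accessory subunit through which the ring meets CTCF. The whole gene gave 154, 142, 162, 159 and 143 CPM in KO, against 155, 138, 155, 149 and 149.9 CPM in WT, so the groups overlap. KO averaged 152 ± 9.18 CPM and WT 149 ± 7.04 CPM (log2 fold change 0.02 ± 0.07 SE, adjusted p = 0.947 by edgeR). Its promoter and intronic peaks were also summed apart, and the difference between the 2 parts was not tested. Its 3 promoter peaks summed to 138 ± 8.51 CPM in KO, against 142 ± 6.15 CPM in WT, a log2 fold change of -0.03 (adjusted p = 0.957), while its 2 intronic peaks summed to 13.6 ± 1.42 CPM in KO, against 7.77 ± 2.08 CPM in WT, a log2 fold change of 0.77 (adjusted p = 0.0221 by edgeR).

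The intronic rise came from the peak at chr9:100685800-100686028, 42177 bp downstream of the start. This peak held 10.2, 12.3, 13.6, 15.5 and 12.2 CPM in KO, against 5.91, 4.51, 6.16, 5.83 and 5.51 CPM in WT. Every KO library lies above every WT library, and the lowest KO value stands well clear of the highest WT value. In reads it held 14, 13, 9, 32 and 27 in KO and 6, 9, 13, 9 and 9 in WT. The peak passed the count filter of the main fit through its KO libraries, as its WT levels lay under that filter. Means were 12.7 ± 1.96 CPM in KO, against 5.58 ± 0.644 CPM in WT (SD, n = 5 each), a fitted 2.32-fold rise with a 95% interval of 1.66 to 3.25 (log2 fold change 1.215 ± 0.24 SE, adjusted p = 0.000289 by edgeR). A two-sided exact permutation test over all assignments of 5 of the 10 libraries gave p = 0.00794, the smallest it can give. Full separation of the groups fixes this value, so it adds nothing to that separation. Groups were fully apart in 3.97% of all tested peaks. DESeq2 gave an adjusted p of 0.0130 and limma-voom 0.000868, and with any 1 library left out the log2 fold change was 1.098 to 1.29 with the call kept. Among the 1026 peaks of the series called higher it ranked 262nd by fold. It stands alone, 15465 bp from the nearest other peak, with 4 other peaks within 100 kb, all of Stag1. Its level was 11.3% of that of the start-site peak in KO and 4.89% in WT. The intronic peak nearest to it, at 26712 bp, was too low to test, at 0.811 ± 0.833 CPM in KO, against 2.19 ± 1.71 CPM in WT.

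**Figure D3:**
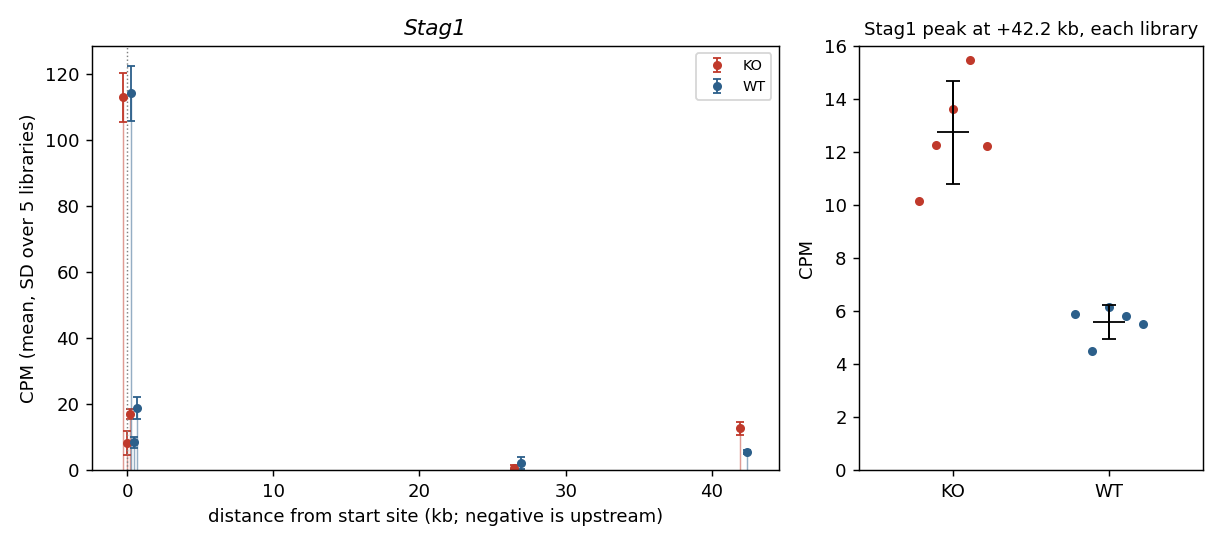
Left, mean CPM with SD (5 libraries per group) of the 5 Stag1 peaks by distance from the start site in kb, with KO (red) drawn slightly left and WT (blue) slightly right of the true place. Right, the peak at 42177 bp in each library, with mean and SD; the KO libraries lie at 10.2 to 15.5 CPM and the WT libraries at 4.51 to 6.16 CPM.

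Nipbl, whose product loads cohesin and drives loop extrusion, had the most peaks of the set, 19, none of them classed as promoter. Their sum was 248.8, 248, 254, 253 and 259 CPM in KO, against 274, 267, 266, 247 and 265 CPM in WT. All 5 KO libraries lie below all WT libraries but Sample_2276_WT, which is the lowest of the 10, so the ranges overlap. KO averaged 252.5 ± 4.47 CPM and WT 264 ± 10.0 CPM (log2 fold change -0.06 ± 0.05 SE, edgeR adjusted p = 0.736, two-sided exact permutation p = 0.0556). The annotated start lies at 8465285 on the minus strand of chromosome 15, and no peak covers it. The densest accessibility was a cluster of 8 peaks 19098 to 22204 bp downstream of it, 7 of which also overlap the RefSeq gene LOC102634078. Its peaks at 20807 and 20981 bp are classed as 5' UTR. Whether a start in use lies in the cluster was not tested. The strongest of the 8 peaks (chr15:8444538-8444803) had 36.5 ± 3.78 CPM in KO, against 35.4 ± 4.37 CPM in WT, a log2 fold change of 0.03 ± 0.12 SE. Per length it reached 137 CPM per kb in KO and 133 CPM per kb in WT, within the range of the start-site peaks of the other genes.

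The other dense stretch of Nipbl lies upstream of its start, at -104410 to -103105 bp, in 4 intergenic peaks. All 4 had fitted log2 fold changes below 0, from -0.50 to -0.09, and none was called. The peak with the smallest p of the gene (chr15:8568777-8568993) held 10.2, 10.4, 6.05, 11.1 and 13.6 CPM in KO, against 14.8, 18.04, 11.4, 17.5 and 17.1 CPM in WT. Only Sample_2272_KO reaches into the WT range. KO averaged 10.3 ± 2.72 CPM and WT 15.8 ± 2.75 CPM (log2 fold change -0.50 ± 0.20 SE, unadjusted p = 0.0149, adjusted p = 0.194 by edgeR). The gene nearest to these peaks in the annotation need not be the gene they act on.

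Wapl encodes the factor that releases cohesin from DNA. Its 7 peaks summed to 105, 106, 133, 119 and 121 CPM in KO, against 113, 107, 120.4, 124 and 120.6 CPM in WT. KO values spread to either side of the WT values, with averages of 117 ± 11.8 CPM in KO, against 117 ± 7.04 CPM in WT (log2 fold change -0.01 ± 0.07 SE, adjusted p = 0.987 by edgeR). The start-site peak (chr14:34673482-34674025) was among the steadiest of the set, at 64.7 ± 2.09 CPM in KO, against 61.6 ± 3.17 CPM in WT. The upstream peaks at -11798 and -12116 bp had fitted changes of opposite sign and neither was called, with log2 fold changes of 0.27 ± 0.23 SE and -0.18 ± 0.17 SE (adjusted p = 0.685 and 0.751).

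Pds5a and Pds5b encode the paired cohesin-binding partners of WAPL. Pds5a summed to 144, 141, 156, 162 and 169 CPM in KO, against 149, 141, 164, 163 and 149 CPM in WT. The ranges nearly coincide, and the means were 154 ± 12.0 CPM in KO, against 153 ± 10.1 CPM in WT (log2 fold change 0.03 ± 0.07 SE, adjusted p = 0.931 by edgeR). An intergenic peak at -26453 bp (chr5:65724309-65725089) was its strongest outside promoters, at 38.9 ± 5.78 CPM in KO, against 39.4 ± 4.30 CPM in WT. Its peak with the smallest p is the only exonic one of the set (chr5:65653907-65654069), which held 2.90, 0.942, 0, 5.80 and 6.79 CPM in KO, against 11.8, 8.02, 7.11, 9.72 and 1.84 CPM in WT. These are 0 to 16 reads a library, and Sample_2277_WT falls among the KO values. The log2 fold change was -0.76 ± 0.35 SE (unadjusted p = 0.0301, adjusted p = 0.287 by edgeR). It was -0.30 without the 3 libraries of lowest total (edgeR adjusted p = 0.854), -1.17 without Sample_2272_KO (edgeR adjusted p = 0.129) and -0.59 to -1.02 with any other library left out, and no setting called it.

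For Pds5b the sum was 102, 74.4, 83.2, 87.4 and 85.1 CPM in KO, against 99.4, 76.7, 87.2, 100.4 and 91.8 CPM in WT. Sample_2268_KO was the highest and Sample_2269_KO the lowest of all 10, so the WT values lie inside the KO range. KO averaged 86.3 ± 9.81 CPM and WT 91.1 ± 9.75 CPM (log2 fold change -0.04 ± 0.08 SE, adjusted p = 0.904 by edgeR). Its tested intronic peak at 44095 bp had 8.11 ± 2.56 CPM in KO, against 6.47 ± 1.97 CPM in WT (log2 fold change 0.47 ± 0.27 SE, adjusted p = 0.471), the highest fold of the uncalled peaks.

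Yy1, a zinc-finger factor found at enhancers and promoters that can pair to bring them together, was the most accessible gene of the set in total CPM, with 9 peaks. They summed to 401, 382, 386, 375 and 364 CPM in KO, against 386, 337, 361, 398 and 352 CPM in WT. The ranges overlap widely, with means of 382 ± 13.7 CPM in KO, against 367 ± 24.9 CPM in WT (log2 fold change 0.06 ± 0.05 SE, adjusted p = 0.728 by edgeR). Promoter peaks gave 198 ± 10.7 CPM in KO, against 201 ± 24.9 CPM in WT. Peaks outside promoters gave 192, 175, 186, 187 and 179 CPM in KO, against 172, 168, 171, 163 and 155 CPM in WT. Here every KO library lies above every WT library, and 5.15% of all sums outside promoters had groups fully apart. The difference is small and was not called (log2 fold change 0.14 ± 0.06 SE, unadjusted p = 0.0262, adjusted p = 0.184 by edgeR).

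Most of that outside signal lies in 4 intergenic peaks upstream of Yy1, at -35041 to -27097 bp, of which 3 overlap the RefSeq genes Gm33628 or Gm33682. The strongest (chr12:108757796-108758270) had 75.6 ± 6.28 CPM in KO, against 67.2 ± 9.59 CPM in WT (log2 fold change 0.16 ± 0.09 SE, adjusted p = 0.476 by edgeR). At 159 CPM per kb in KO and 141 CPM per kb in WT it was as dense as a start-site peak of the set, and it spans the RefSeq start of Gm33628. The peak at -29509 bp had the smallest p of the gene, with 15.9 ± 3.70 CPM in KO, against 12.4 ± 4.33 CPM in WT (log2 fold change 0.36 ± 0.20 SE, adjusted p = 0.430). All 4 had fitted changes above 0 and none was called.

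**Figure D4:**
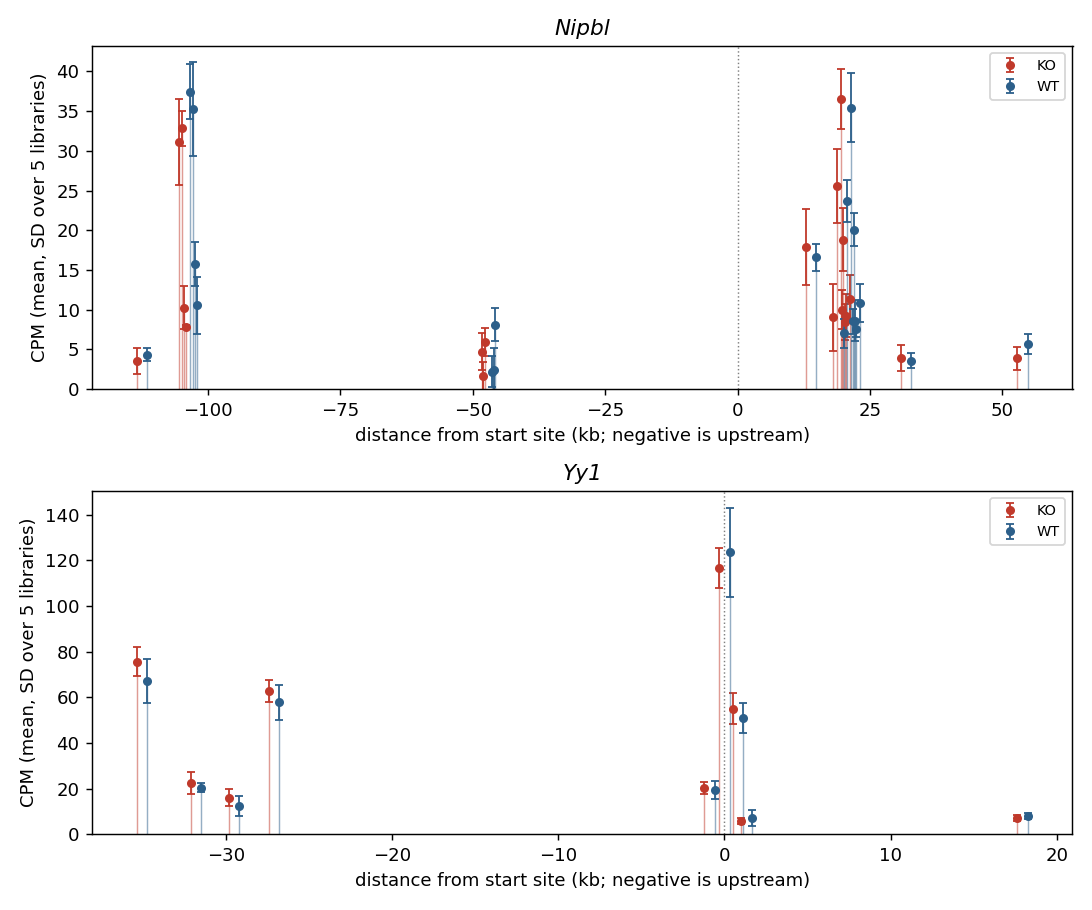
Mean CPM with SD (5 libraries per group) of the 19 Nipbl peaks (top) and the 9 Yy1 peaks (bottom) by distance from the annotated start site in kb, with KO (red) drawn slightly left and WT (blue) slightly right of the true place. Nipbl has no peak at its annotated start and clusters near 20 kb downstream, where some peaks are classed as 5' UTR, and near 104 kb upstream. Yy1 has start-site peaks and 4 upstream peaks, and group means differ by less than the drawn SDs in most pairs.

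Ldb1 encodes an adaptor that dimerises to join distant LIM-factor complexes. Its 6 peaks summed to 125, 125, 151, 148 and 148 CPM in KO, against 132, 129.8, 156, 135 and 133 CPM in WT. Both groups hold low and high libraries, and the averages were 140 ± 13.0 CPM in KO, against 137 ± 10.7 CPM in WT (log2 fold change 0.02 ± 0.07 SE, adjusted p = 0.945 by edgeR). The start-site peak (chr19:46044893-46045213) had 35.5, 30.2, 39.3, 34.8 and 38.5 CPM in KO, against 16.7, 25.6, 38.9, 35.0 and 24.5 CPM in WT. WT varies more widely than KO, and the groups overlap. KO averaged 35.7 ± 3.62 CPM and WT 28.1 ± 8.83 CPM (log2 fold change 0.28 ± 0.13 SE, unadjusted p = 0.0349, adjusted p = 0.309 by edgeR). It was 0.44 without Sample_2275_WT (edgeR adjusted p = 0.0568), 0.19 to 0.34 with any other library left out and 0.56 with counts thinned to the smallest total (edgeR adjusted p = 0.187), and no setting called it. A peak in the 5' UTR (chr19:46039486-46039809) was stronger, at 40.4 ± 3.41 CPM in KO, against 40.9 ± 2.59 CPM in WT, and covers another RefSeq start of Ldb1. The other promoter peak, at -84 bp, had 17.9 ± 4.57 CPM in KO, against 20.5 ± 5.82 CPM in WT. Sample_2273_WT was highest there, at 30.5 CPM, and lowest in the start-site peak. The 2 promoter peaks summed to 53.5 ± 5.72 CPM in KO, against 48.6 ± 6.12 CPM in WT (log2 fold change 0.17 ± 0.10 SE, adjusted p = 0.638 by edgeR).

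**Figure D5:**
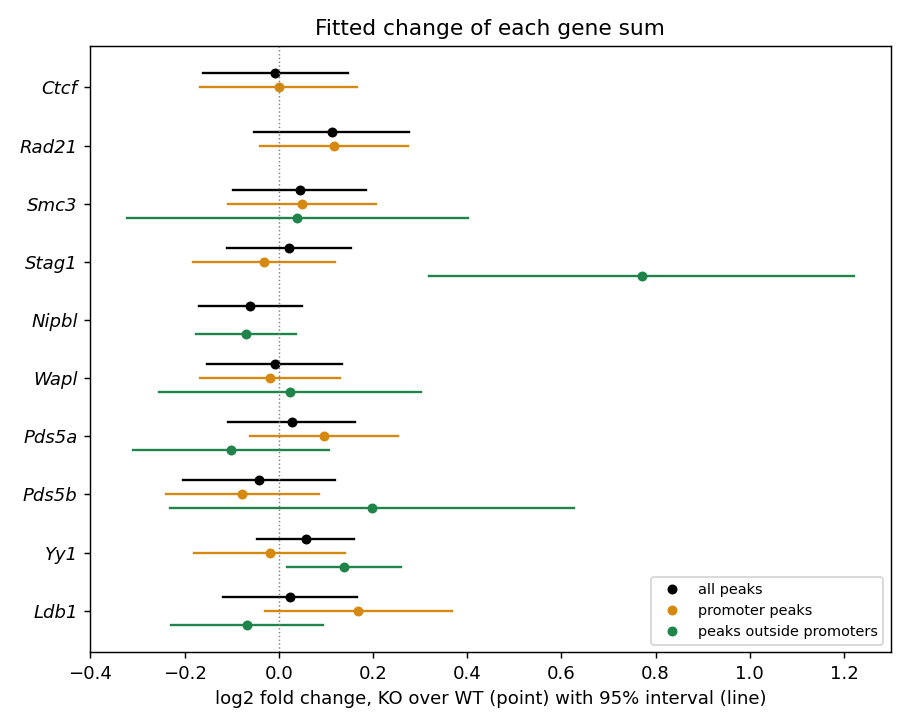
For each gene, points give the fitted log2 fold change, KO over WT, and lines its 95% interval, for all peaks (black), promoter peaks (orange) and peaks outside promoters (green). The intervals of all 10 black lines cover 0; the green line of Stag1, at 0.77, and that of Yy1, at 0.14, do not.

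Split this way, 0 of 9 promoter sums were called, against 0.635% of 10240 promoter sums called higher and 0.0488% called lower. Of the 8 sums outside promoters, 1 was called higher, that of Stag1, against 4.46% of 6855 such sums called higher and 2.09% called lower. Nipbl has no promoter sum, and Ctcf and Rad21 have no peak outside promoters. The sums of Nipbl and Ldb1 outside promoters include their peaks classed as 5' UTR.

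The start-site peaks could be set beside each other per length. All genes but Nipbl had a peak within 3 bp of the annotated start, and 0 of the 9 were called (edgeR adjusted p = 0.309 to 0.996, log2 fold changes -0.09 to 0.28). In order of mean density over the 10 libraries, Stag1 reached 178 ± 11.6 CPM per kb in KO, against 179.9 ± 13.0 CPM per kb in WT, and Yy1 155 ± 11.8 CPM per kb in KO, against 164 ± 26.1 CPM per kb in WT. Ctcf followed with 138 ± 20.3 CPM per kb in KO, against 136 ± 17.2 CPM per kb in WT, then Pds5b with 132 ± 16.9 CPM per kb in KO, against 142 ± 14.1 CPM per kb in WT. Rad21 had 142 ± 24.7 CPM per kb in KO, against 130.7 ± 8.90 CPM per kb in WT, and Smc3 had 124 ± 16.4 CPM per kb in KO, against 117 ± 9.67 CPM per kb in WT. Wapl, Ldb1 and Pds5a were the least dense, at 119 ± 3.83, 111 ± 11.3 and 95.3 ± 9.42 CPM per kb in KO and 113 ± 5.83, 87.6 ± 27.5 and 90.4 ± 9.23 CPM per kb in WT. Every pair of neighbours in this order overlapped within 1 SD in both groups, while Stag1 and Pds5a lie far apart. All these peaks were measured in the same libraries, so overlap of these SDs does not decide the order of neighbours. That order was not tested library by library. Among the 9144 start-site peaks of the table these densities fall between the 56.3rd and 98.2nd percentile. Sample_2270_KO, with the lowest total and the highest mitochondrial share (1.97%), was the highest of the 10 libraries in 5 of the 9 start-site peaks. Its part in the spread was not tested beyond leaving it out.

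Other genes of loop formation were read from lists of cohesin regulators, condensin and SMC5/6, further anchor factors, LDB1 partners and YY1 relatives. Of 46 listed genes 41 had peaks, and Ctcfl, Smc2, Ncapd3 and Zfp42 were among those with none. In the gene sums 37 were tested, 1 was called higher and 0 lower, against 1.65% and 0.536% of all gene sums. Of their 113 tested peaks 5 were called higher, or 4.42%, and 0 lower, against 2.94% and 0.911% of all tested peaks. The median log2 fold change of the tested gene sums was -0.005.

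By list, 0 of 10 cohesin regulators, 1 of 11 condensin and SMC5/6 genes, 0 of 9 anchor factors, 0 of 5 LDB1 partners and 0 of 2 YY1 relatives had a called sum. The called gene was Nsmce2, which encodes a SUMO ligase of the SMC5/6 complex. It summed to 21.0, 32.0, 37.8, 29.0 and 29.4 CPM in KO, against 17.7, 20.05, 18.5, 19.4 and 18.4 CPM in WT. The groups do not overlap, as in 3.11% of all gene sums, though Sample_2268_KO comes close to the highest WT library. Of the 5 Nsmce2 peaks 1 held enough counts to be tested alone, and 0 were called. KO averaged 29.9 ± 6.06 CPM and WT 18.8 ± 0.923 CPM (log2 fold change 0.61 ± 0.15 SE, adjusted p = 0.0126 by edgeR). The call ended with DESeq2 (adjusted p = 0.105), without the 3 libraries of lowest total (edgeR adjusted p = 0.127) and with counts thinned to the smallest total (edgeR adjusted p = 0.315).

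The called peaks lie within introns by the deposited classes, though the intron need not be one of the gene named. For those of Sgo1, Top2b and Ssbp2 at 48397 bp, the WT libraries alone would not have passed the count filter. The Ssbp2 gene, whose product binds and stabilises LDB1, held 2 of the called peaks. The peak at 48397 bp had 18.1, 21.7, 22.7, 19.3 and 13.1 CPM in KO, against 5.91, 10.5, 11.9, 9.72 and 9.79 CPM in WT, with no overlap, as in 3.97% of all tested peaks. It is the only 1 of the 5 that DESeq2 also called (log2 fold change 0.84 ± 0.20 SE, edgeR adjusted p = 0.00316, DESeq2 adjusted p = 0.0364). The Ssbp2 peak at 79814 bp had 54.6 ± 7.47 CPM in KO, against 40.4 ± 6.20 CPM in WT (0.40 ± 0.11 SE, adjusted p = 0.0123 by edgeR), and its call ended with libraries within counting noise of each other merged (edgeR adjusted p = 0.109). Without the 3 libraries of lowest total, both Ssbp2 calls ended (edgeR adjusted p = 0.0882 for the first and 0.125 for the second), as they did with thinned counts (edgeR adjusted p = 0.0783 and 0.283). A peak of Top2b, the topoisomerase found at loop anchors, rose to 13.6 ± 2.65 CPM in KO, against 7.14 ± 2.56 CPM in WT (0.89 ± 0.23 SE, adjusted p = 0.0111). A peak at -4444 bp from Maz, a zinc-finger gene whose product acts at CTCF sites, had 17.0 ± 2.19 CPM in KO, against 10.0 ± 2.14 CPM in WT (0.78 ± 0.20 SE, adjusted p = 0.00656). This Maz peak lies upstream of the annotated Maz start. The groups did not overlap in the Maz and Top2b peaks either. A peak of Sgo1, the guardian of centromeric cohesin, had 12.0 ± 5.20 CPM in KO, against 6.21 ± 1.47 CPM in WT (0.94 ± 0.26 SE, adjusted p = 0.0153 by edgeR), and its call ended without Sample_2268_KO, which alone stood at 21.0 CPM. Leaving out Sample_2271_KO ended the calls of Maz, Top2b and the second Ssbp2 peak, and those of Sgo1, Top2b and the second Ssbp2 peak also ended without some WT libraries (Sample_2274_WT or Sample_2277_WT for Sgo1, Sample_2276_WT for Top2b, Sample_2275_WT for Ssbp2).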

How the data were processed

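ATAC-seq counts from 5 KO and 5 WT libraries were used. The table deposited by the authors holds whole-number read counts per peak, not normalized, for 61581 peaks of 1 common set, 10 of them mitochondrial. A second deposited table gives position, class, gene symbol and a signed distance score in bp from the peak to the gene's start. Libraries were single reads of 75 bp from 60000 cells each, per the labels' protocols. Per the submitters' processing notes, Bowtie2 2.3.5, Picard, SAMtools 1.9, MACS2 2.1.2 and ChIPseeker 1.18.0 were used on mm10. Read shifting, duplicate removal and pooling for peak calling are not given in the sources used here. Shifting reads to the cut site would move peak borders by a few bases, and duplicate removal would cap dense peaks in deep libraries.

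Counts per peak, and counts summed over all peaks of a symbol, were tested with edgeR 4.0.16 in R 4.3.3 (quasi-likelihood, TMM scaling, filterByExpr by group, no covariate, two-sided), with Benjamini-Hochberg adjustment over all 34910 peaks or 12489 sums and a threshold of 0.05. DESeq2 1.42.0, limma-voom (limma 3.58.1), other scalings and filters, left-out or merged libraries and thinned counts were alternatives, and the edgeR fit per peak was tested on simulated counts. SE and 95% intervals come from the F statistic of the fit. Levels are CPM after TMM scaling of in-peak totals. Sample_2270_KO and each of Sample_2268_KO, Sample_2271_KO and Sample_2272_KO, Sample_2271_KO and Sample_2272_KO, each pair of Sample_2273_WT, Sample_2276_WT and Sample_2277_WT, and Sample_2274_WT and Sample_2275_WT differed by no more than counting noise. Their totals differ and the relation does not carry over between pairs, so each library stayed 1 replicate, and a fit with merged sets (3 KO, 2 WT) was an alternative.

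The members, lists and rules were chosen with earlier results of these data known. Named were all members, every called member peak, for other members the peak of smallest p, the strongest peak outside promoters, and the called genes of the other lists. Promoter sequences are from RefSeq. Coordinates are 1-based mm10. Some listed genes are not reported here.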

Additional observations from a re-analysis of the deposited data

Results flagged for a closer look

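Among 42 groups of 5 libraries examined for a library far from its group (gene sums, start-site peaks and named peaks), 2 held one, and chance alone flags about 1 in 20. For the Ldb1 gene sum, Sample_2275_WT stood at 156 CPM and the other WT libraries at 129.8 to 135 CPM, so its gap to the nearest made up 0.811 of the group's range, above the limit of 0.71 for 5 values. For the Wapl start-site peak, Sample_2274_WT stood at 56.1 CPM and the other WT libraries at 61.8 to 64.0 CPM, a share of 0.722. Neither gene was called with or without these libraries.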

How the results depend on the processing

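No paired analysis was possible because the library numbers are each used once and pair no KO library with a WT library. The Stag1 intronic peak was called in every setting in which it was tested (log2 fold change 1.098 to 1.29, adjusted p 0.000226 to 0.0130), and no member peak was called lower and no start-site peak in either direction in any setting. In the main fit the Stag1 peak passed the count filter only through its KO libraries. Without a count filter its log2 fold change was 1.20 (edgeR adjusted p = 0.000226). Thinning all libraries to the smallest total, or asking for a mean count of at least 50, left 0 member peaks called higher, because the Stag1 peak then fell under the filter and was not tested. Member gene sums called higher numbered 1 with peaks outside promoters only (Stag1) and 0 otherwise. Counts limit what can be seen in single low peaks.

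Peaks of the other loop genes called higher numbered 1 with DESeq2, 1 at a mean count of at least 50, 3 without the 3 lowest totals, 0 with thinning and 2 to 6 with 1 library left out. Their gene sums called higher numbered 0 with DESeq2, at a mean count of at least 50, without the 3 lowest totals, with thinning and with promoter peaks only, 4 with peaks outside promoters only, and 1 to 2 with 1 library left out. Over all peaks, called in either direction were 1344, but 587 with DESeq2, 158 at a mean count of at least 50, 303 with thinning and 1091 to 1386 with 1 library left out. Over all gene sums they were 273, but 109 with DESeq2, 72 with thinning, 156 with libraries within Poisson noise merged, 70 with promoter peaks only, 449 with peaks outside promoters only, and 191 to 259 with 1 library left out.

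Log2 fold changes near 0 changed sign without a call. For the Ctcf sum (-0.0075) they were 0.0011 with DESeq2, 0.00021 merged, 0.048 thinned, 5.6e-05 with promoter peaks only and -0.055 to 0.070 with 1 library left out. The Stag1 sum (0.021) was -0.032 with promoter peaks only and -0.0092 to 0.053 with 1 left out. The Wapl sum (-0.0087) was 0.024 outside promoters and -0.039 to 0.026 with 1 left out. The Pds5a sum (0.027) was -0.081 thinned, -0.10 outside promoters and -0.016 to 0.064 with 1 left out. The Pds5b sum (-0.043) was 0.030 without the 3 lowest totals and 0.20 outside promoters, and the Yy1 sum (0.057) was -0.019 with promoter peaks only. The Ldb1 sum (0.024) was -0.00084 merged, -0.067 outside promoters and -0.0087 to 0.088 with 1 left out. Of the start-site peaks, Ctcf (-0.0025) was 0.0095 at a mean count of at least 50, 0.046 thinned and -0.062 to 0.070 with 1 left out, and Rad21 (0.043) was -0.022 without the 3 lowest totals and -0.016 to 0.10 with 1 left out. Smc3 (0.049) was -0.0013 to 0.10 with 1 left out, Stag1 (-0.016) was 0.0068 without the 3 lowest totals, 0.053 thinned and -0.047 to 0.0056 with 1 left out, Wapl (0.072) was -0.028 thinned, and Yy1 (-0.058) was -0.13 to 0.025 with 1 left out. The cause was not tested. The sums of Nipbl, Rad21 and Smc3 and the start-site peaks of Pds5a, Pds5b and Ldb1 kept their direction in all settings run.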

Other observations

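Of the 37 tested sums of the other loop genes, 5 had an unadjusted p under 0.05 (12.5% of all gene sums did), and these were named after their values were seen. They are the called Nsmce2, and Stag2, Smc5, Lmo4 and Ssbp2, and each was higher in KO. Stag2, the gene of the alternative STAG subunit on the X chromosome, had 72.5, 69.7, 83.2, 72.0 and 73.8 CPM in KO, against 67.9, 55.1, 68.3, 58.3 and 60.0 CPM in WT. The lowest KO library lies just above the highest WT library, and groups did not overlap in 3.11% of all gene sums. The log2 fold change was 0.25 ± 0.09 SE (edgeR unadjusted p = 0.00494, adjusted p = 0.124). Lmo4, a LIM-only partner of LDB1, averaged 233 ± 13.8 CPM in KO and 204 ± 12.0 CPM in WT (0.20 ± 0.06 SE, adjusted p = 0.0656), Ssbp2 averaged 241 ± 15.9 CPM in KO and 211 ± 13.0 CPM in WT (0.17 ± 0.06 SE, adjusted p = 0.152), and Smc5 averaged 112 ± 14.95 CPM in KO and 95.8 ± 9.63 CPM in WT (0.17 ± 0.08 SE, adjusted p = 0.329). None of these last 4 passed over all gene sums.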
